A study of Mus musculus with 16 samples.

Results

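The contractile apparatus of smooth muscle was followed through 10 genes: Acta2, Actg2, Tagln, Cnn1, Lmod1, Smtn, Myh11, Mylk, Des and Synpo2. They were taken by symbol from a table of read counts for 24964 gene symbols in mouse stomach. All 10 were found, and all 10 passed the filter on low counts that left 15385 genes for testing. They are read here as a measure of muscle in each biopsy and are compared across the groups of the study. The counts come from bulk tissue and are relative to the library. More muscle in the biopsy, more RNA per muscle cell and less RNA from other cells cannot be told apart in them.

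The mice were C57BL/6 wild type (WT) or TTPΔARE on a congenic C57BL/6 background, all female and aged 8 weeks. TTP, tristetraprolin, is the product of Zfp36 and promotes the decay of transcripts that carry AU-rich elements; in TTPΔARE the allele lacks such an element of its own transcript. The 16 libraries form 4 groups of 4, named WT-A, WT-S, TTP-A and TTP-S after genotype and condition. Condition A is gastric inflammation after adrenalectomy, the removal of the adrenal glands. For condition S the treatment label reads SPEM, spasmolytic polypeptide-expressing metaplasia, which is a change of the corpus glands, and does not say whether these mice were operated on. Each RNA was taken from the lesser curvature of the gastric corpus as a 4 mm biopsy. The labels do not say that the libraries of a group came from separate mice, so the p-values measure the spread between these libraries, which may be in part technical.

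Smooth muscle contracts when calcium and calmodulin activate myosin light-chain kinase (the product of Mylk), which phosphorylates the regulatory light chain so that smooth muscle myosin (heavy chain, Myh11) pulls on actin filaments. The filaments hold the vascular-type actin Acta2 and the enteric-type actin Actg2, are bound by transgelin (Tagln), calponin (Cnn1) and smoothelin (Smtn), and are nucleated by leiomodin (Lmod1). Desmin (Des) is the intermediate filament that links the dense bodies, where synaptopodin 2 (Synpo2) binds actin and alpha-actinin. In the stomach these proteins are most abundant in the external muscle layer and the muscularis mucosae, and Acta2, Tagln and Myh11 are also made in the walls of blood vessels.

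Because the actins are near-copies of each other, their sequences decide whether reads can be told apart. The first 120 coding bases, read from the longest GENCODE transcripts, are shown for both smooth muscle actins, with capitals at bases that do not match the other gene in the alignment.
Acta2: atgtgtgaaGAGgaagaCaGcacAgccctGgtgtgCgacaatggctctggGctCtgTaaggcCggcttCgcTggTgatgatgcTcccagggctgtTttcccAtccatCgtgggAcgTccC
Actg2: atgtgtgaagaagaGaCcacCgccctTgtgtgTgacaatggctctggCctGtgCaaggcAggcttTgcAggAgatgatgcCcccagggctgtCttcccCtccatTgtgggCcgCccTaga
Over the whole coding sequence 955 of 1134 aligned bases (84.2%) matched, and the longest stretch without a difference was 29 bases. Of all 50-base words of the Acta2 transcript, 0.35% also occurred in transcripts of other genes, and 0 of those of Actg2 did. Of those of Myh11, 0.4% were shared with Myh9 or Myh10.

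Transcription of many contractile genes is driven by serum response factor through a DNA element called the CArG box, which is 10 bases long and reads the same pattern on both strands. RefSeq promoter windows (build GRCm38.p6, 250 bases before the start) were matched for 7 of the 10 genes, not for Myh11, Tagln and Actg2. No window held a box without a mismatch, and 2 of the 7, those of Acta2 and Lmod1, held 2 boxes each with 1 mismatch. Among all 32851 windows of this length, 1.47% held an exact box, 18.6% at least 1 with up to 1 mismatch, and 2.96% at least 2. The 4 elements are printed with 10 bases on either side because Acta2 was called between groups and Lmod1 was not, and the capitals mark the box.
Acta2, chr19:34255438-34255467, minus strand, 84 bases before the start: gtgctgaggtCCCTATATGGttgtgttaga
Acta2, chr19:34255388-34255417, minus strand, 34 bases before the start: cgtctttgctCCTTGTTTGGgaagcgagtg
Lmod1, chr1:135324614-135324643, plus strand, 189 bases before the start: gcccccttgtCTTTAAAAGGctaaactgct
Lmod1, chr1:135324639-135324668, plus strand, 164 bases before the start: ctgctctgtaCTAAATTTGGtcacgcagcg
These matches are letters in a window and were not measured as bound sites. GENCODE places the start of Acta2 further upstream, so that its elements lie in an annotated first exon there. The windows of Mylk and Smtn also lie inside the genes as GENCODE places them, and those of Cnn1 and Lmod1 overlap the gene start. The lack of an exact box therefore applies to these RefSeq windows alone.

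Total counts ranged from 17453930 to 25849472 per library. Zfp36 was at 55.1 to 88.6 CPM (counts relative to a library total scaled by the trimmed mean of M-values, TMM) in the 8 WT libraries and at 110.5 to 131 CPM in the 8 TTPΔARE libraries. Markers of the corpus glands were abundant in every library, with summed levels of 16144 to 24878 CPM for 7 parietal cell genes and 47241 to 149710 CPM for 5 chief cell genes. The libraries WT-A 3 and WT-A 4 stood apart: their deviation from the gene medians rose with the GC content of the transcript (Spearman correlation 0.716 and 0.738 across 11493 genes, which are not independent replicates), against an absolute correlation of at most 0.302 in the other 14. Tested differences that use WT-A are therefore given also from the 14 libraries without this pair, which leave WT-A with 2. Transcript GC content of the 10 genes ran from 47.8% in Synpo2 to 60.1% in Smtn.

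Most of the contractile genes were among the genes with the most reads in the biopsies. By mean CPM over the 16 libraries, Myh11 ranked 14 and Acta2 26 among the 24964 symbols, Tagln 59, Des 86, Mylk 121, Cnn1 160 and Actg2 165, while Smtn (460), Synpo2 (803) and Lmod1 (1222) ranked lower. Relative to merged exon length, among 24423 symbols with a length, Acta2 ranked 22, Tagln 41, Myh11 63, Actg2 85, Des 131 and Cnn1 149. On that scale Smtn (578), Mylk (654), Lmod1 (1124) and Synpo2 (3021) ranked lower. Together the 10 genes took 0.794% ± 0.0720 of all counts in WT-S and 1.08% ± 0.0718 in WT-A (SD, n = 4 libraries). In the TTPΔARE groups the share was 0.771% ± 0.113 under condition S and 0.831% ± 0.0898 under condition A (n = 4). The lowest share in WT-A was 1.01% and the highest share in any other library was 0.900%. This gap depends on the scaling: after TMM scaling the 10 genes summed to 7800.0 to 8724 CPM in WT-S, 9005 to 10759 in WT-A, 6742 to 9361 in TTP-S and 7299.9 to 8745 in TTP-A. On that scale WT-A 2, the lowest of its group, lay below TTP-S 3, and the mean of WT-A was 1.23-fold that of WT-S, against 1.36-fold by share of counts.

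Per kilobase of merged exon the order of levels differed from that by CPM, because the genes differ in length from 1557 bases (Actg2) to 13089 (Synpo2). Acta2 was highest, at 840 ± 120 CPM per kilobase over the 16 libraries, followed by Tagln at 486 ± 68.6, Myh11 at 385 ± 40.4 and Actg2 at 303 ± 102. Des (203 ± 37.8) and Cnn1 (179 ± 31.9) followed, within each other's spread, as were Smtn (59.3 ± 6.10) and Mylk (53.6 ± 4.47). Lmod1 (34.9 ± 2.88) and Synpo2 (13.96 ± 1.29) were lowest. The spreads of Tagln and Myh11 and those of Myh11 and Actg2 also met, as did that of Actg2 with those of Des and Cnn1. In WT-A the mean of Actg2 (452 ± 44.9 CPM per kilobase, n = 4) lay above that of Myh11 (425 ± 32.0). Actg2 was the most variable of the 10, with a coefficient of variation of 33.6% in CPM over the 16 libraries, against 8.25% for Lmod1, the least variable.

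**Figure D1:**
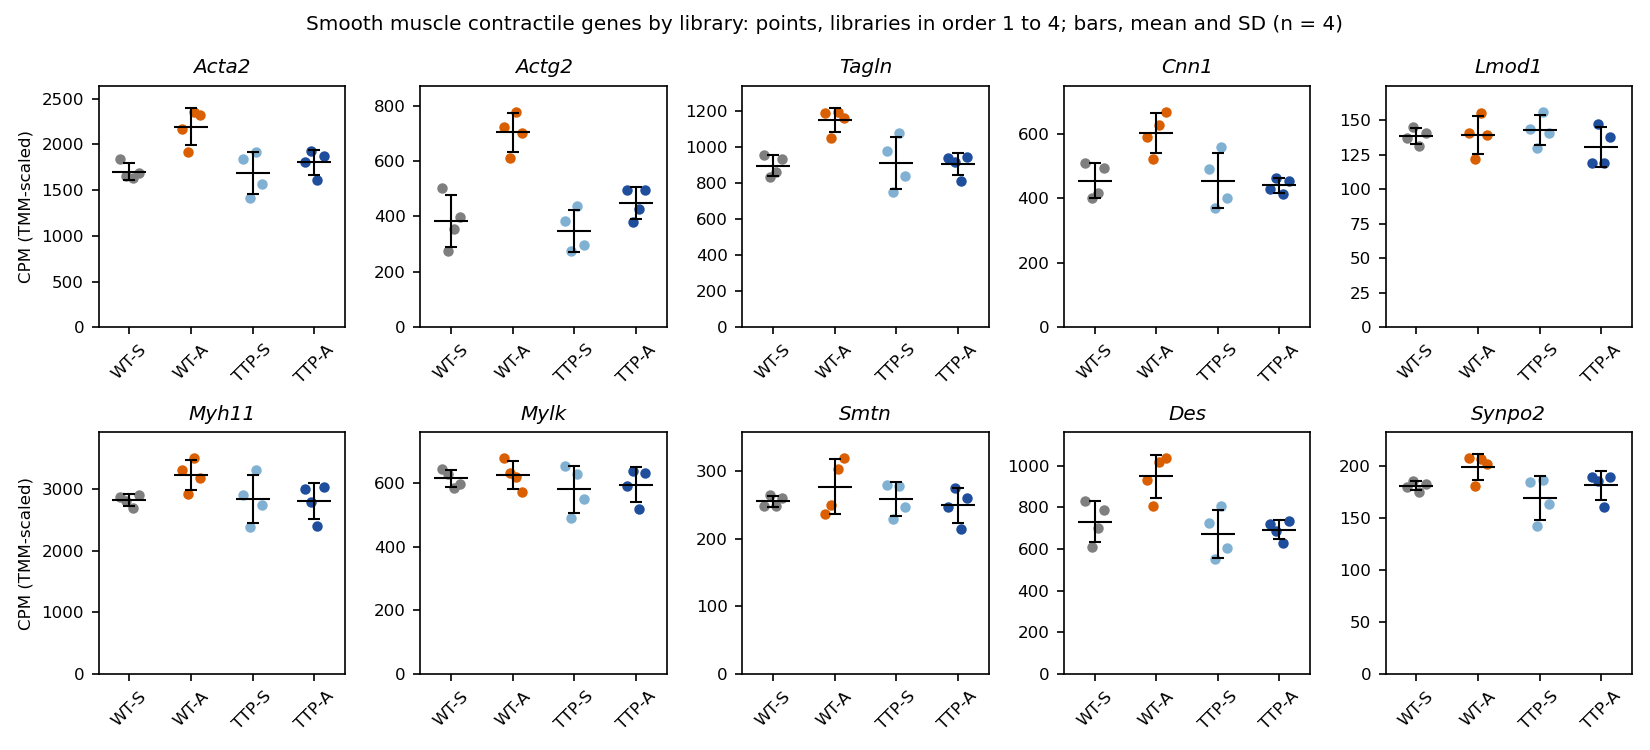
CPM of each of the 10 genes (linear axes from 0) in the 4 libraries of each group, with points in replicate order 1 to 4 and bars for the mean and SD (n = 4). The WT-A libraries of Actg2 lie between 609.5 and 777 CPM, above all libraries of the other groups, whereas those of Lmod1 and Mylk overlap them.

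Condition A in WT mice was compared with condition S first. Of the 10 genes, 5 were higher in WT-A, and 0 were lower, at an adjusted p under 0.05 (edgeR quasi-likelihood test with Benjamini-Hochberg adjustment over all genes tested). Genes called higher made up 9.63% of all genes tested in this comparison, and genes called lower 8.85%. The 5 were both actins, Actg2 and Acta2, the filament-binding Tagln and Cnn1, and Des. By merged exon length these were the 5 shortest of the 10 (1557 bases in Actg2 to 3754 in Des). The 5 not called ran from 3948 (Lmod1) to 13089 (Synpo2). The Spearman correlation of a library's deviation from the gene medians with length was -0.061, -0.085, -0.223 and -0.290 in WT-A 1 to 4. In WT-S 1 to 4 it was -0.180, 0.131, 0.013 and 0.058. Whether length has a part in the calls was not tested. All 10 log2 differences were above 0, with a median of 0.28 beside 0.0094 over all genes. In the 14 libraries edgeR called 0 of the 10 genes, against 4.37% called higher and 5.67% called lower among all genes. An unadjusted p under 0.05 was reached there by 3 of the 10 and by 26.3% of all genes. There, 8 of the 10 differences were above 0 and their median was 0.20. On 16 libraries DESeq2 called 5 of the 10 (11% of all genes were higher by that tool) and limma voom with sample weights called 1, Actg2 (9.79%). A fit of WT-A and WT-S alone called 3, Actg2, Acta2 and Tagln (2.62%).

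Actg2, the enteric-type actin (chr6:83512905-83536265, minus strand of GRCm38, the build of all gene positions here), differed most. It was at 504, 277, 356 and 399 CPM in WT-S 1 to 4 and at 724, 609.5, 777 and 702 CPM in WT-A 1 to 4. The lowest WT-A library lay above the highest WT-S library, and WT-S 2 was the lowest of the 8. The log2 difference was 0.87 (SE 0.17, 95% interval 0.51 to 1.24, adjusted p = 0.00526), or 1.83-fold. It was 0.80 in the 14 libraries (adjusted p = 0.0551), and with any single library removed it stayed under the threshold (16 fits, highest adjusted p 0.0188).

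Acta2, the vascular-type actin and the gene with the highest level per length (chr19:34241090-34255590, minus strand), was at 1843, 1653, 1629 and 1684 CPM in WT-S and at 2172, 1912, 2356 and 2326 CPM in WT-A. The groups did not overlap, and WT-A 3 and 4 were the highest libraries. Acta2 was higher by a log2 of 0.36 (SE 0.094, adjusted p = 0.0165), and in the 14 libraries it was 0.26 (adjusted p = 0.123). Without WT-A 3 alone the adjusted p was 0.0558. The CPM ratio of Actg2 to Acta2 was 0.167 to 0.273 in WT-S and 0.302 to 0.333 in WT-A, without overlap.

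Of the proteins that bind the filament, transgelin and calponin were higher and leiomodin and smoothelin were not called. Tagln (chr9:45929619-45936058, minus strand) was at 959, 836, 861 and 934 CPM in WT-S and at 1189.6, 1052, 1196.5 and 1161 CPM in WT-A, without overlap. Its log2 difference was 0.36 (SE 0.094, adjusted p = 0.0178; 0.32 and adjusted p = 0.0906 in the 14 libraries), and the call was lost without WT-S 2 or WT-A 3 (highest adjusted p 0.0584). Of the 1988 exon bases of Tagln, 1349 (67.9%) overlap Pcsk7 or an antisense transcript on the other strand, and whether counting used the strand is not given in the sources used here, so its reads are uncertain. The same holds to a smaller extent for Des, Smtn and Mylk, whose exons overlap antisense or processed transcripts by 220 to 772 bases (5.86% to 17.2% of their exon bases).

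Cnn1 (chr9:22099216-22109630, plus strand) was at 510.2, 401, 416 and 494 CPM in WT-S and at 592, 523, 627 and 669 CPM in WT-A. Its groups did not overlap, though WT-A 2 lay only just above WT-S 1. Cnn1 was higher by a log2 of 0.40 (SE 0.12, adjusted p = 0.0271; 0.29 and adjusted p = 0.227 in the 14 libraries), and the call was lost without WT-S 2, WT-S 3, WT-A 3 or WT-A 4 (highest adjusted p 0.0874).

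Lmod1 (chr1:135324807-135368065, plus strand) was at 137, 145, 131 and 140.3 CPM in WT-S and at 140.3, 122, 155 and 139 CPM in WT-A. These ranges overlap, with WT-A 2 lowest and WT-A 3 highest of the 8. The log2 difference was 0.0097 (95% interval -0.17 to 0.19; -0.078 in the 14 libraries). Smtn (chr11:3517523-3540612, minus strand) was at 248, 265, 248 and 259 CPM in WT-S and at 236, 249, 303 and 319 CPM in WT-A: the pair that stands apart by GC content was high and the other WT-A libraries were within or below the range of WT-S. Its log2 difference was 0.12 (95% interval -0.090 to 0.32) in 16 libraries and -0.074 in 14.

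The motor and its kinase were not called. Myh11, the smooth muscle myosin heavy chain (chr16:14194535-14291372, minus strand), was at 2869, 2801, 2699 and 2912 CPM in WT-S and at 3304, 2919, 3499.6 and 3186 CPM in WT-A. The groups did not overlap, but WT-A 2 lay just above WT-S 4. The log2 difference was 0.19 (SE 0.095, 95% interval -0.0060 to 0.39, adjusted p = 0.149), and 0.14 in the 14 libraries (adjusted p = 0.448). Mylk (chr16:34745210-35002420, plus strand) was at 646, 629, 585 and 599 CPM in WT-S and at 678, 631, 618 and 572 CPM in WT-A. The ranges overlap, and the log2 difference was 0.023 (95% interval -0.16 to 0.21; 0.090 in the 14 libraries).

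The intermediate filament and the dense body gave 1 call. Des (chr1:75360329-75368579, plus strand) was at 828, 609, 701 and 787 CPM in WT-S and at 932, 807, 1020.0 and 1035 CPM in WT-A, so that WT-A 2 lay below WT-S 1. Des was higher by a log2 of 0.38 (SE 0.12, adjusted p = 0.0382; 0.25 and adjusted p = 0.303 in the 14 libraries), and the call was lost without WT-S 2, 3 or 4 or without WT-A 3 or 4 (highest adjusted p 0.115). Synpo2 (chr3:123076519-123236149, minus strand) was at 175 to 185 CPM in WT-S and at 181 to 207 CPM in WT-A, with an overlap through WT-A 2, and its log2 difference was 0.14 (95% interval -0.031 to 0.31; 0.10 in the 14 libraries). Of the 10 genes, 5 had WT-A libraries that all lay above those of WT-S (Acta2, Actg2, Tagln, Cnn1 and Myh11), as did 9.2% of all genes tested.

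**Figure D2:**
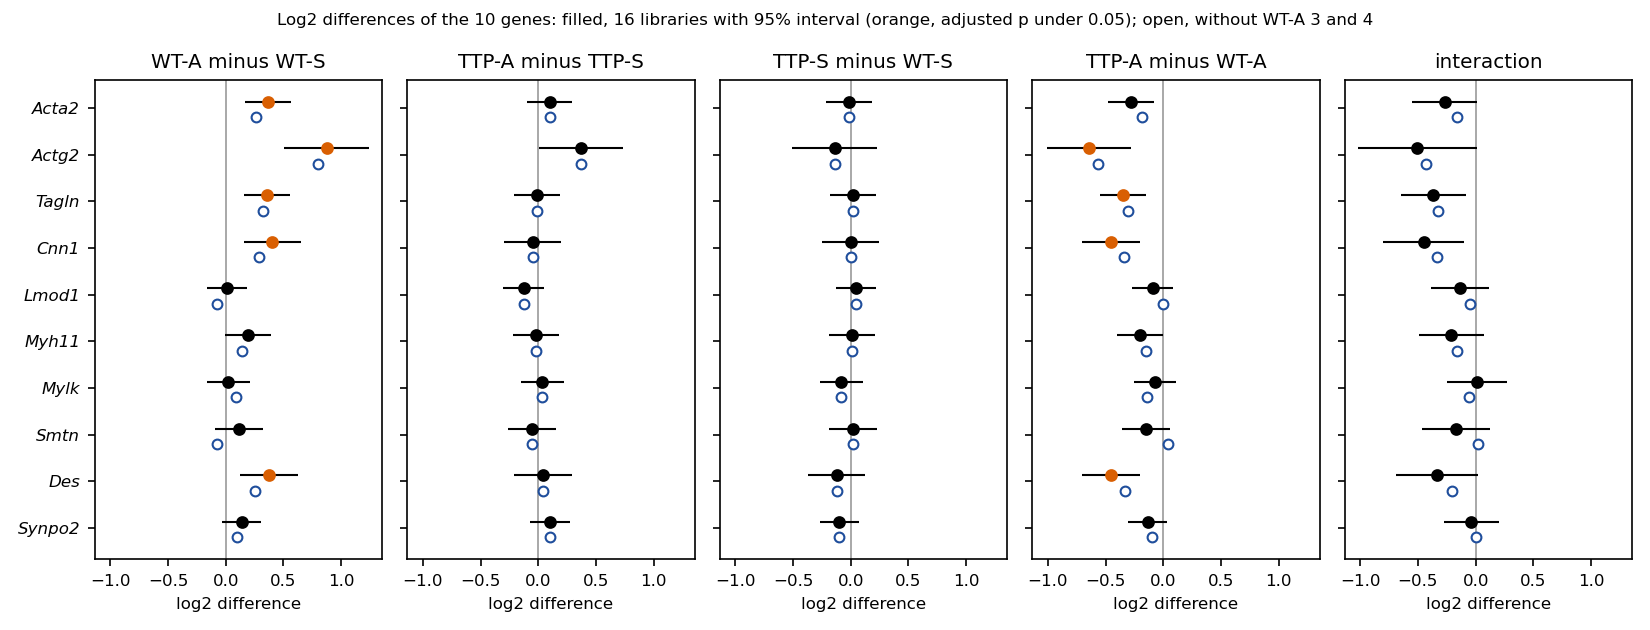
Log2 differences of the 10 genes in each comparison: filled points with 95% intervals are from 16 libraries (orange where the adjusted p is under 0.05), open points from the 14 without WT-A 3 and 4. "Interaction" is TTP-A minus TTP-S less WT-A minus WT-S. Called genes appear in WT-A minus WT-S (5) and in TTP-A minus WT-A (4) alone, and the open points lie nearer to 0 for each of them.

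In the TTPΔARE mice 0 of the 10 genes were called between conditions A and S by edgeR, beside 2.57% of all genes tested. At an unadjusted p under 0.05 there was 1, Actg2 (15.7% of all genes), and DESeq2 called 0 of the 10 (5.61% of all genes). Without WT-A 3 and 4 edgeR also called 0 of the 10, beside 5.86% of all genes. Actg2 was at 384, 275, 436 and 298 CPM in TTP-S and at 497, 379, 426 and 497 CPM in TTP-A. TTP-A 2 and 3 lay below TTP-S 3, so the groups overlap. The log2 difference was 0.37 (SE 0.17, 95% interval 0.0032 to 0.73, adjusted p = 0.311), and the Actg2 to Acta2 ratio ranged from 0.190 to 0.228 in TTP-S and from 0.197 to 0.275 in TTP-A. The other 9 genes had log2 differences from -0.13 (Lmod1) to 0.10 (Synpo2), and the median of the 10 was 0.013.

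The intervals show how large a difference these libraries would allow. For Acta2 the interval of TTP-A minus TTP-S ran from -0.10 to 0.30, for Myh11 from -0.22 to 0.18, for Tagln from -0.21 to 0.19 and for Cnn1 from -0.30 to 0.20.

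Whether condition A moved the 10 genes differently in the genotypes was tested as the interaction. By edgeR 0 of 10 were called, beside 0.0455% of all genes, and by DESeq2 0, beside 1.7%. Cnn1 and Tagln were the 2 with an unadjusted p under 0.05 (14.8% of all genes). Their log2 interactions were -0.45 (SE 0.17, adjusted p = 0.241) and -0.37 (SE 0.13, adjusted p = 0.238), in the direction of a smaller difference in TTPΔARE mice, and -0.34 and -0.33 in the 14 libraries. That of Actg2 was -0.50 (SE 0.24, adjusted p = 0.344) and -0.43 in the 14 libraries. Of the 10 interactions 9 were below 0, that of Mylk being 0.012, and the median was -0.24; in the 14 libraries 8 were below 0 and the median was -0.16. The response in WT and that in TTPΔARE mice are thus not shown to differ.

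The genotypes were then compared in condition S. Of the 10 genes, 0 were called between TTP-S and WT-S by edgeR (0.0325% of all genes tested), 0 had an unadjusted p under 0.05 (7.37% of all genes) and DESeq2 called 0 (0.65%), as did edgeR without WT-A 3 and 4 (0.417%). The log2 differences ran from -0.14 (Actg2, 95% interval -0.51 to 0.22) to 0.044 (Lmod1, -0.13 to 0.22), with a median of -0.0074. For Acta2 (-0.015, -0.21 to 0.18) and Myh11 (0.0090, -0.19 to 0.21) the intervals allow a difference of up to 0.21 in size. For 9 of the 10 genes the SD in CPM was larger in TTP-S than in WT-S, and for Actg2 it was smaller (75.1 against 94.6 CPM). Myh11 had an SD of 387 CPM around 2838 in TTP-S and 92.9 CPM around 2820.1 in WT-S.

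In condition A, 4 of the 10 genes were lower in TTPΔARE than in WT mice and 0 were higher. Genes called lower made up 2.32% of all genes tested, and genes called higher 2.83%. The 4 were Actg2, Tagln, Cnn1 and Des; Acta2 had a log2 difference of -0.28 (adjusted p = 0.0809; -0.18 in the 14 libraries). All 10 differences were below 0, with a median of -0.24 beside -0.0033 over all genes. In the 14 libraries edgeR called 0, against 0.59% called lower and 1.47% called higher among all genes. An unadjusted p under 0.05 was reached there by 4 of the 10 and by 18.9% of all genes. There, 9 of 10 differences were below 0 and the median was -0.17. On 16 libraries DESeq2 called 5 (4.96% of all genes were lower by that tool), limma voom called 0 (2.28%), and a fit of the 2 groups alone called 0 of the 10. That last fit called 0% of all genes lower and 0.0266% higher. This comparison shares its WT-A libraries with that of WT-A and WT-S.

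Actg2 was at 724, 609.5, 777 and 702 CPM in WT-A 1 to 4 and at 497, 379, 426 and 497 CPM in TTP-A 1 to 4, without overlap. Its log2 difference was -0.64 (SE 0.17, adjusted p = 0.0446), or 0.640-fold, and it was -0.57 in the 14 libraries (adjusted p = 0.220). Cnn1 was at 429, 465, 415 and 454 CPM in TTP-A, all below the lowest WT-A library at 523 CPM. Its log2 difference was -0.45 (SE 0.12, adjusted p = 0.0394; -0.34 and adjusted p = 0.231 in the 14 libraries).

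Des was at 719.7, 684, 631 and 733 CPM in TTP-A, again below all 4 WT-A libraries. Its log2 difference was -0.46 (SE 0.12, adjusted p = 0.0396; -0.33 and adjusted p = 0.242 in the 14 libraries). Tagln was at 939.7, 919.6, 815 and 945 CPM in TTP-A against at least 1052 CPM in WT-A. Its log2 difference was -0.35 (SE 0.094, adjusted p = 0.0447; -0.31 and adjusted p = 0.161 in the 14 libraries).

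These were the 4 genes whose TTP-A libraries all lay below those of WT-A, as did 6.22% of all genes tested. Each of the 4 calls was lost without WT-A 3, without WT-A 4 and without any single TTP-A library; the highest adjusted p was 0.132 for Actg2, 0.115 for Cnn1, 0.121 for Des and 0.131 for Tagln. Myh11 had a log2 difference of -0.20 (95% interval -0.40 to -0.0023, adjusted p = 0.180; -0.15 in the 14 libraries). Mylk, Lmod1, Smtn and Synpo2 lay between -0.15 and -0.070, and between -0.14 and 0.039 in the 14 libraries.

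**Figure D3:**
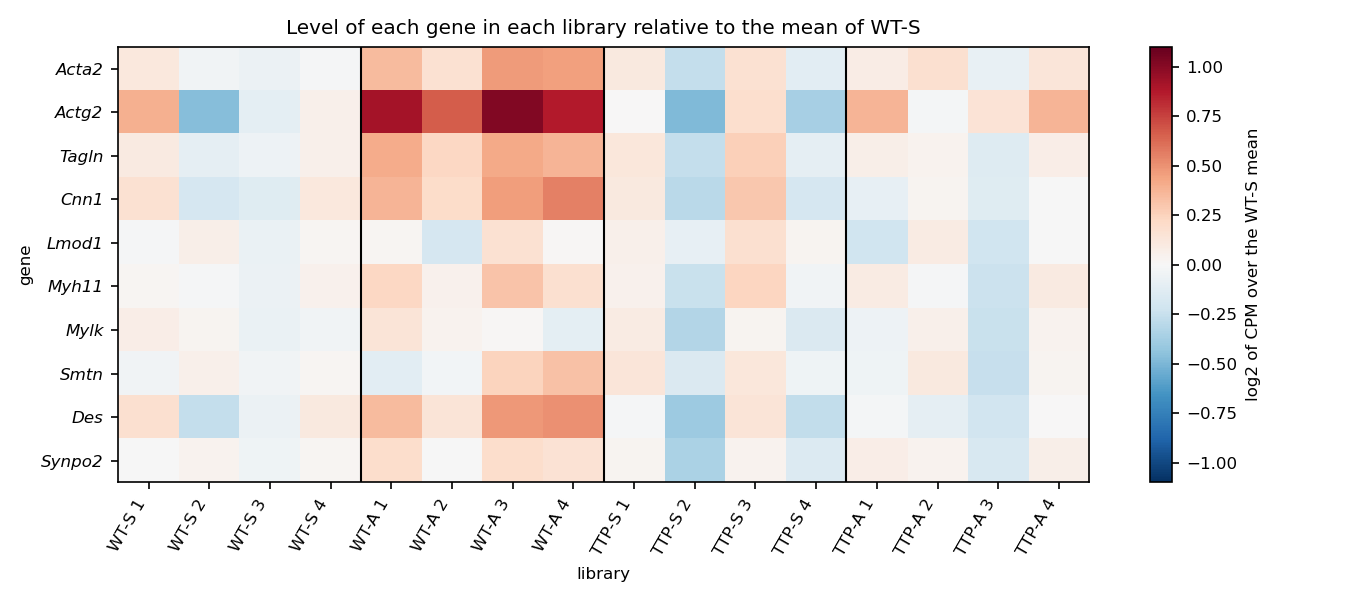
Log2 ratio of the CPM of each gene in each library to the mean of WT-S (colour scale, red above and blue below). The row of Actg2 is reddest in WT-A 1 to 4, and TTP-S 2 and TTP-A 3 are blue in nearly every row.

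Within groups the genes tended to be high or low together. TTP-S 2 had the lowest CPM of its group for all 10 genes and TTP-S 3 the highest for 8. TTP-A 3 was lowest in its group for 9 genes and WT-A 2 for 8, while WT-S 1 was highest in its group for 6. As a description, Pearson's r of log2 CPM over the 16 libraries had a median of 0.684 over the 45 pairs of genes, and of 0.709 after the group means were subtracted. The pair most alike was Des and Cnn1 (0.965, and 0.951 with group means subtracted), and the pair least alike was Actg2 and Lmod1 (0.0416 and 0.220). All points share the library scaling, and the genes of a library come from the same biopsy.

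Outside the 10, the gene whose log2 CPM followed their mean most closely was Tpm2, a tropomyosin that lies along the actin filament (r = 0.980 over the 16 libraries, 0.973 with group means subtracted). Myl9, the regulatory light chain that Mylk phosphorylates, followed (0.978 and 0.968), then Csrp1 (0.941 and 0.909), Rras (0.940 and 0.872), Dmpk (0.939 and 0.911) and the tropomyosin Tpm1 (0.937 and 0.912). Ckm, the muscle creatine kinase (0.908 and 0.794), Flna, the actin crosslinker filamin A (0.908 and 0.901), Poldip3 (0.897 and 0.775) and Adcy1 (0.882 and 0.755) completed the 10 most alike. These genes were ranked by this measure and it is not evidence about them.

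Other genes of smooth muscle were grouped by role into 5 lists. In WT-A against WT-S, the thin filament list (tropomyosins, light chains, other actins, alpha-actinin) had 6 of 10 genes higher and 0 lower, with a median log2 difference of 0.26 (0.19 in the 14 libraries). The largest were Actn1, alpha-actinin 1 (0.43, SE 0.065, adjusted p = 0.00135; 0.36 and adjusted p = 0.00513 in the 14 libraries), and Tpm2 (0.43, SE 0.099, adjusted p = 0.00999; 0.38 and adjusted p = 0.0617). In the 14 libraries 2 of these 10 genes were called higher. In TTP-A against WT-A, 4 of the 10 were lower, with Tpm2 at -0.38 (adjusted p = 0.0400) and Actn1 at -0.30 (adjusted p = 0.0221). Without WT-A 3 and 4, 0 were called, with Tpm2 at -0.33 and Actn1 at -0.23. With 1 library left out, Tpm2 was called in 6 of 16 fits and Actn1 in 13.

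Of 15 genes of the dense body and cytoskeleton, 4 were higher and 1 lower in WT-A than in WT-S, with a median of 0.18 (2 higher, 0 lower and 0.13 in the 14 libraries). Vim, the intermediate filament of mesenchymal cells, was higher by 0.47 (SE 0.12, adjusted p = 0.0133; 0.19 and adjusted p = 0.0956 in the 14 libraries). Itga7, a laminin-binding integrin subunit of muscle, was higher by 0.46 (SE 0.088, adjusted p = 0.00402; 0.41 and adjusted p = 0.0211). In TTP-A against WT-A 2 were lower, Jph2, which ties the sarcoplasmic reticulum to the cell membrane (-0.39, adjusted p = 0.0483), and Pdlim7, an actin-associated scaffold (-0.31, adjusted p = 0.0309). In the 14 libraries 0 were called, with Jph2 at -0.18 and Pdlim7 at -0.16. With 1 library left out, Jph2 was called in 2 of 16 fits and Pdlim7 in 10.

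The lists for the control of contraction held at most 2 calls each. Of 9 genes of myosin regulation (among them subunits of myosin phosphatase), 0 were called in WT-A against WT-S, with a median of -0.17 that was -0.036 in the 14 libraries. Of 10 genes of excitation and calcium handling 1 was called, Cacna1c, the pore subunit of the L-type calcium channel, which was higher by 0.44 (SE 0.10, adjusted p = 0.00977; 0.39 and adjusted p = 0.0605 in the 14 libraries); the median was -0.17, and -0.12 in the 14 libraries. Of 10 transcription factors 8 could be tested: Srf was higher by 0.24 (SE 0.076, adjusted p = 0.0365) and Mef2c was lower, at -0.41 (SE 0.13, adjusted p = 0.0445). With WT-A 3 and 4 left out, 0 were called, with Srf at 0.093 and Mef2c at -0.20. With 1 library left out, Srf was called in 11 of 16 fits and Mef2c in 4. In TTP-A against WT-A 0 genes of these 3 lists were called, and in TTP-A against TTP-S and in TTP-S against WT-S 0 genes of any of the 5 (in the 14 libraries, 2 thin filament genes were higher in TTP-A than in TTP-S).

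**Figure D4:**
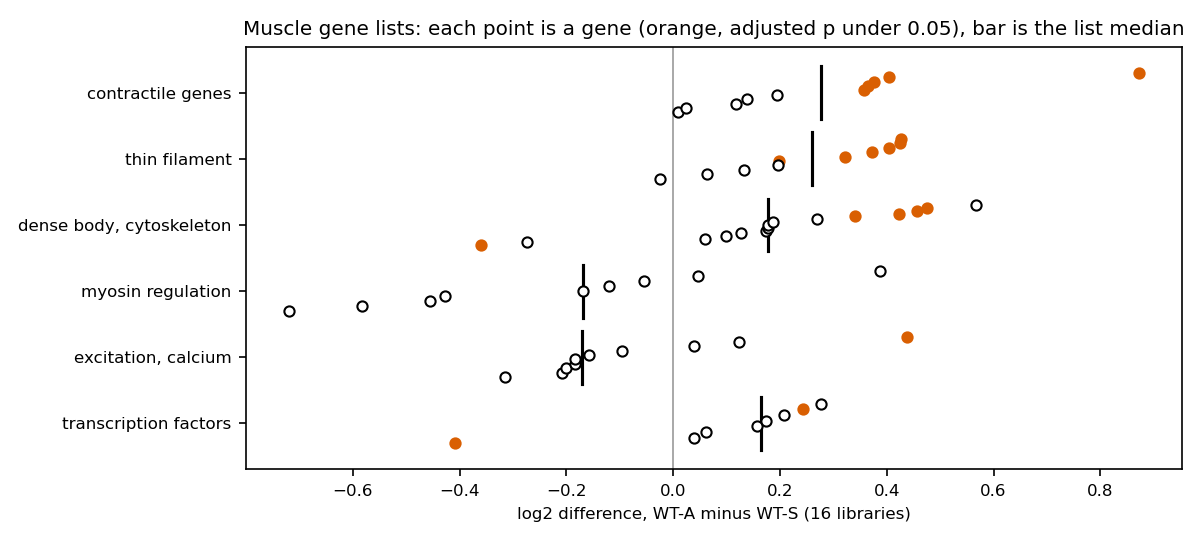
Log2 differences of WT-A minus WT-S (16 libraries) for the 10 contractile genes and the genes of the 5 muscle lists; each point is a gene, orange where the adjusted p is under 0.05, and the bar is the list median. The medians of the contractile (0.28) and thin filament (0.26) genes lie to the right of 0, and those of myosin regulation and excitation (both -0.17) to the left; in the 14 libraries without WT-A 3 and 4 the last 2 medians were -0.036 and -0.12.

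Markers of other cells and tissues were read beside the values of WT-A. Of 4 genes of interstitial cells of Cajal, the pacemaker cells of the muscle layer, 1 was called higher in WT-A than in WT-S: Ano1, the calcium-activated chloride channel, by 0.39 (SE 0.075, adjusted p = 0.00393; 0.42 and adjusted p = 0.00801 in the 14 libraries), while Kit stood at -0.010 (adjusted p = 0.924; 0.035 in the 14 libraries). Ano1 was also called higher in TTP-A than in TTP-S, by 0.30 (adjusted p = 0.0442; 0.30 and adjusted p = 0.0234 in the 14 libraries). The summed level of the 4 was 198 to 217 CPM in WT-S, 224 to 259 in WT-A, 212 to 229 in TTP-S and 223 to 259 in TTP-A. Mean Ano1 was 114 CPM in WT-S and 150 in WT-A, and mean Kit 86.0 and 85.4. Of the 4 differences of WT-A minus WT-S, 2 were above 0, with a median of 0.038 (3 and 0.056 in the 14 libraries). Of 9 skeletal muscle genes 5 could be tested and 3 were higher, Acta1 (1.98, adjusted p = 0.0153), Ckm (0.41, adjusted p = 0.0414) and Tnni2 (0.30, adjusted p = 0.0337). Without the WT-A 3 and 4 pair 0 were called, with values of 1.65, 0.28 and 0.30. Their sum was 50.3 to 54.4 CPM in WT-S, 66.0 to 79.0 in WT-A, 42.5 to 53.1 in TTP-S and 46.7 to 55.4 in TTP-A; Myh4, a fast myosin found in skeletal muscle, was at 0 counts in all 16 libraries, and Myh1 was at no more than 1.94 CPM in any.

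Of 8 endothelial genes 4 were higher in WT-A than in WT-S, the junction genes Pecam1 (0.31, adjusted p = 0.00965), Cdh5 (0.34, adjusted p = 0.0150) and Cldn5 (0.72, adjusted p = 0.0200) and the receptor Tie1 (0.32, adjusted p = 0.0239), with a list median of 0.23. In the 14 libraries these stood at 0.19, 0.16, 0.49 and 0.16 and 0 genes were called higher; Kdr, the main receptor for vascular endothelial growth factor, was called lower (-0.37, adjusted p = 0.0477), and the median was 0.12. The endothelial sum was 257 to 284 CPM in WT-S, 255 to 335 in WT-A (255 and 293 in WT-A 1 and 2), 267 to 293 in TTP-S and 301 to 321 in TTP-A. Of 7 pericyte genes 0 were called. Their differences had a median of 0.23, with 5 above 0 (-0.030 and 2 in the 14 libraries), whereas their sum was lower, at 568 to 649 CPM in WT-S, 386 to 592 in WT-A, 539 to 635 in TTP-S and 540.1 to 687 in TTP-A. That sum is led by Rgs5, with means of 458 CPM in WT-S and 328 in WT-A (-0.48, adjusted p = 0.102; -0.084 in the 14 libraries).

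Of 8 fibroblast genes 3 were higher in WT-A than in WT-S, the collagens Col1a1 (0.76, adjusted p = 0.00383), Col3a1 (0.61, adjusted p = 0.00322) and Col1a2 (0.42, adjusted p = 0.0355). They stood at 0.41, 0.36 and 0.12 in the 14 libraries, where Col1a1 and Col3a1 were called. Dcn (-0.11), Lum (-0.20) and Dpt (-0.069), matrix genes of the same list, were not called, and the list median was 0.085. The fibroblast sum was 1343 to 1512 CPM in WT-S, 1489 to 2352 in WT-A, 1710.3 to 2141 in TTP-S and 1914 to 2125 in TTP-A. In TTP-S against WT-S all 8 differences were above 0, with a median of 0.33 and 0 called. A fit without WT-A 3 and 4, libraries of neither group, left that median at 0.33 and called 3 higher, Col1a1 (0.52), Col3a1 (0.51) and Col1a2 (0.44).

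Of 6 macrophage genes 2 were higher in WT-A, the lysosomal Cd68 (0.95, adjusted p = 0.00130; 1.08 and adjusted p = 0.000998 in the 14 libraries) and the receptor Csf1r (0.54, adjusted p = 0.0497; 0.23 and not called in the 14). Adgre1 (-0.12) and Mrc1 (-0.15) of the same list were not called. Of the 6 macrophage differences 4 were above 0, with a median of 0.27 (3 and 0.036 in the 14 libraries). Of 5 mesothelium genes 4 could be tested and 2 were higher, Lrrn4 (2.58, adjusted p = 0.0109) and Upk3b (1.75, adjusted p = 0.0474). In the 14 libraries 1, Lrrn4, was called. The 5 summed to at most 5.20 CPM in any library, and WT-S libraries held 1 to 3 counts of Lrrn4 and 2 to 7 of Upk3b. WT-S had the lowest mean sum (1.23 CPM), below WT-A (2.59), TTP-A (2.65) and TTP-S (2.76). The 4 mesothelium differences of TTP-S minus WT-S were also above 0, with a median of 1.32 and 0 called. For TTP-A minus WT-A their median was -0.0032. Genes of the forestomach squamous epithelium, which a corpus biopsy can include, summed to 4.11 to 237 CPM in WT-S, 49.6 to 938 in WT-A, 30.4 to 436 in TTP-S and 5.76 to 238 in TTP-A, and 1 of 9, Krt6a, was called higher in WT-A with and without WT-A 3 and 4.

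Markers of the glands were read in the same way. Of 7 parietal cell genes 4 were lower than in WT-S, with a median of -0.45 (5 and -0.54 in the 14 libraries), and their sum was 20378 to 24593 CPM in WT-S and 16144 to 24878 in WT-A. Of 4 surface mucous cell genes 0 were called, with a median of -0.33 (2 lower and -0.55 in the 14 libraries). Of 5 chief cell genes 2 were lower and 1 higher (3 and 1 in the 14 libraries), and their sum was 75507 to 149710 CPM in WT-S and 47241 to 100580 in WT-A. Of 9 enteric nerve and glia genes 1 was lower in WT-A, the neuronal Elavl4, named after its values were seen (-0.84, adjusted p = 0.00817; -0.77 and adjusted p = 0.0497 in the 14 libraries). In TTP-A against WT-A, 1 parietal, 2 chief cell, 1 endothelial, 1 fibroblast and 1 enteric nerve or glia gene were higher, and 1 skeletal muscle and 1 exocrine pancreas gene were lower. Without WT-A 3 and 4 the same comparison had 3 parietal, 2 chief cell, 1 endothelial, 0 fibroblast, 1 enteric nerve or glia and 1 adipose gene higher, and again 1 skeletal muscle and 1 exocrine pancreas gene lower. The part of these cells and tissues in the differences of the contractile genes was not tested.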

How the data were processed

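The deposited values are raw read counts by gene symbol, in 1 table of 16 libraries (17453930 to 25849472 counts each); the labels name no molecular identifiers. STAR 2.7.0f, featureCounts, Subread 1.6.4, DESeq2 and the build mm10 are named per the submitters' processing notes; the annotation and the strandedness are not given in the sources used here. Every column had a sample, and groups came from the sample titles.

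Counts were tested with edgeR 4.0.16 in R 4.3.3: filterByExpr, TMM scaling, a robust quasi-likelihood fit with 1 mean per group over 16 libraries, and Benjamini-Hochberg adjustment over all 15385 genes tested. Called means an adjusted p under 0.05. The SE is that implied by the log2 difference and its test. CPM are relative to the TMM-scaled library total, and likeness used log2 CPM with a prior count of 2. The fit was tested on simulated data. Alternatives were size factors of DESeq2 1.42.0 (RLE), no filter, at least 10 counts in 4 libraries, DESeq2, limma 3.58.1 voom with sample weights, the groups compared alone, the replicate number as a block, the 14 libraries without WT-A 3 and 4, each library left out, and, chosen after seeing the data, unscaled library totals. Between libraries of a group (24 pairs) chi-square over degrees of freedom was 4.90 to 94.7, and each library counts as a replicate.

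Gene models, lengths, GC content and overlaps came from GENCODE M21 (GRCm38, the same build as mm10), and promoter windows from RefSeq. The 10 genes and the lists of muscle and marker genes were chosen with earlier results of these data known. Genes named outside the 10 were, per comparison, at most the 2 called genes of largest difference in each muscle list. Also named were the 10 most alike, Zfp36, and markers of a cell type where their list moved with the contractile genes. Elavl4, Kit, Kdr, Rgs5, Adgre1, Mrc1 and the fibroblast genes not called were named after their values were seen.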

Additional observations from a re-analysis of the deposited data

Results flagged for a closer look

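In 1 of 40 tests of a gene in a group, 1 library lay far from the other 3: Synpo2 in TTP-A 3 was at 160.5 CPM, against 186 to 190 CPM in the other TTP-A libraries. Chance alone flags about 1 in 20 such groups. TTP-A 3 was also the lowest TTP-A library for 8 of the other 9 contractile genes.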

How the results depend on the processing

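Between WT-A and WT-S the number of contractile genes called moved from 5 to 1 with limma voom, 3 in a fit of only the groups compared, 0 without WT-A 3 and 4, and 8 with unscaled library totals, which also moved the median log2 difference over all genes to 0.16. With 1 library left out it ranged from 1 (without WT-A 3) to 5, with 2 without WT-S 2 and 3 without WT-S 3 or WT-A 4. Between TTP-A and WT-A it moved from 4 to 0 with limma voom, in a fit of only the groups compared and without WT-A 3 and 4, and ranged from 0 to 5 with 1 library left out: 0 without WT-A 3, WT-A 4 or any TTP-A library, 1 without WT-S 3 or TTP-S 1 and 2 without WT-S 4 or TTP-S 4. It was 0 in the other comparisons under every alternative run. The replicate number as a block left 5 and 4 calls. Same-numbered libraries did not deviate together (correlations -0.43 to 0.444 over 24 pairs, median -0.063). Over the 72 pairs with other numbers the median was 0.018. With so few libraries this cannot exclude that the numbers pair them, and the labels do not say. The cause of the changes in the number called was not tested.

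Signs changed for differences near 0. In WT-A minus WT-S, Lmod1 was at -0.082 with limma voom and -0.078 without WT-A 3 and 4, and Smtn at -0.0093 and -0.074; with 1 library left out Lmod1 ran from -0.047 to 0.069 and Mylk from -0.018 to 0.065. In TTP-A minus TTP-S, unscaled totals gave Cnn1 0.026, Myh11 0.060, Smtn 0.023 and Tagln 0.066, and limma voom gave Myh11 0.022 and Tagln 0.023. With 1 library left out, Cnn1 ran from -0.13 to 0.067, Des from -0.039 to 0.14, Myh11 from -0.091 to 0.066, Mylk from -0.036 to 0.095, Smtn from -0.10 to 0.015 and Tagln from -0.091 to 0.081. In TTP-S minus WT-S, Cnn1 was at -0.0013 with RLE size factors and with DESeq2, -0.0033 with the replicate block, -1.5e-06 without WT-A 3 and 4 and -0.023 with unscaled totals, which also gave Myh11 -0.012, Smtn -0.0018 and Tagln -0.00044. With 1 library left out, Acta2 ran from -0.080 to 0.058, Actg2 from -0.27 to 0.018, Cnn1 from -0.11 to 0.087, Myh11 from -0.073 to 0.083, Smtn from -0.021 to 0.071 and Tagln from -0.068 to 0.10. In TTP-A minus WT-A, Lmod1 was at 0.014 with limma voom and Smtn at 0.039 without WT-A 3 and 4. In the interaction, Mylk was at -0.014 with limma voom, -0.055 without WT-A 3 and 4 and -0.062 with unscaled totals, Smtn at 0.022 without WT-A 3 and 4, and Synpo2 at 0.052 and 0.00043 under the first 2 of these; with 1 library left out Mylk ran from -0.063 to 0.072 and Synpo2 from -0.11 to 0.017. Every contractile gene had 2443 or more counts in each library. What limits the calls was not tested.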
